A study of Mus musculus with 16 samples.

Results

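The collagen genes of mouse liver were followed across 4 nutritional and genetic groups. They were taken as every protein-coding gene whose symbol is Col, a number, a and a number, which gave 40 of the 25803 genes listed, and 23 of them had enough counts to be tested. Livers came from male mice fed a high-fat diet (HFD) for 12 weeks. Control mice were set against mice with a liver knockout of Cpt1a (LKO), and necropsy followed either a fast of 16 h or that fast plus refeeding for 6 h, giving 4 groups of 4 libraries. The fasted control libraries are named S40 to S43, the fasted LKO libraries S44 to S47, the refed control libraries S48 to S51 and the refed LKO libraries S52 to S55. All groups share the diet, the sex and the fast. The labels give neither the Cre driver of the knockout, nor the strain, nor the age of the mice, and they do not say whether a library comes from 1 animal, so p-values measure the spread between these libraries.

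Collagens are secreted proteins built from 3 chains wound into a triple helix. The fibrillar chains form the load-bearing fibres of connective tissue, collagen IV forms the sheet of basement membranes, collagen VI forms beaded filaments, fibril-associated chains decorate the fibres, and multiplexins such as collagens XV and XVIII sit in or near basement membranes. In liver the fibrillar chains are known chiefly as products of stellate cells and portal fibroblasts, and their accumulation is the scar of fibrosis, whereas hepatocytes are a known source of collagen XVIII, the precursor of endostatin. Each chain must be hydroxylated, folded and cross-linked by dedicated enzymes, which were followed as well.

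Collagen reads were a small part of these livers, between 0.117% and 0.183% of a library, and most of them came from a single gene, Col18a1, with 66.0% to 80.4% of all collagen counts. Libraries held between 14721601 and 24618230 counts. The targeted gene, Cpt1a, which encodes the enzyme that admits long-chain fatty acids to mitochondrial oxidation, stood at 377.5 to 555.7 counts per M (mega) counts of the scaled library (CPM) in fasted control and 86.1 to 125.6 CPM in fasted LKO, and at 319.4 to 619.7 CPM in refed control and 39.9 to 75.2 CPM in refed LKO. Hepatocyte markers (7 of 8 listed and tested) summed to 69040 to 76190 CPM in fasted control and 57280 to 65640 CPM in fasted LKO, which did not overlap, and to 65450 to 87300 CPM in refed control and 57920 to 70930 CPM in refed LKO. Library S44 of fasted LKO stood apart in markers of other cells: its myofibroblast markers (5 of 6 tested) summed to 82.2 CPM against 10.03 to 16.0 CPM in the other fasted LKO libraries, its mesothelial markers to 34.6 CPM against 6.03 to 6.45 CPM, and its pancreatic acinar markers (2 of 6 listed) to 9.43 CPM against 0 to 0.373 CPM. Among the fasted control libraries S40 had the highest myofibroblast sum, 48.7 CPM against 10.9 to 18.5 CPM. Lymphocyte markers (5 of 6 tested) summed to 3.74 to 6.95 CPM in the control libraries and 13.5 to 38.99 CPM in the LKO libraries. Jchain was the 1 gene of the list that passed, higher in LKO when fasted and when refed. Over all genes 12.2% and 3.63% were called in these comparisons. Its log2 fold changes were 3.35 and 3.86 (edgeR adjusted p = 0.000332 and 0.000231), against medians of 0.61 and 0.82 for the tested genes of the list. The part of Jchain in the sum was not tested. The remaining sums ranged over all libraries from 174.4 to 715.7 CPM for resident macrophages, 219.3 to 1264 for red blood cells and 1430 to 5557 for the adipocyte list, of which Pck1 alone held 1298 to 5203 CPM while Adipoq and Lep stayed at or below 0.447 CPM.

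Promoter windows are shown for the members whose levels are described most fully, because Col27a1 and Col18a1 gave the calls with refeeding and Col4a1 and Col4a2 are transcribed away from each other from nearly the same place. The windows run from 250 bases before to 50 bases after an annotated start, are RefSeq sequence of the build GRCm38.p6, and are written 5′ to 3′ on the strand of the gene, with matches to a GC box (GGGCGG, or CCGCCC on the other strand) or a CCAAT box (CCAAT, or ATTGG on the other strand) in capitals. The Col27a1 window lies at chr4:63215162-63215461 on the plus strand, the Col18a1 window at chr10:77166481-77166780 on the minus strand, the Col4a1 window at chr8:11312777-11313076 on the minus strand and the Col4a2 window at chr8:11312555-11312854 on the plus strand.
Col27a1: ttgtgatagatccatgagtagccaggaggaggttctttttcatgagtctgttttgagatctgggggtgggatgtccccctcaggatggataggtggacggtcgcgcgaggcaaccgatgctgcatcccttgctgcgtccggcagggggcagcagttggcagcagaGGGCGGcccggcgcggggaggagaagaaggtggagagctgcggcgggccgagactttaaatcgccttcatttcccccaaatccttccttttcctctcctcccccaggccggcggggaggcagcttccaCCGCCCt
Col18a1: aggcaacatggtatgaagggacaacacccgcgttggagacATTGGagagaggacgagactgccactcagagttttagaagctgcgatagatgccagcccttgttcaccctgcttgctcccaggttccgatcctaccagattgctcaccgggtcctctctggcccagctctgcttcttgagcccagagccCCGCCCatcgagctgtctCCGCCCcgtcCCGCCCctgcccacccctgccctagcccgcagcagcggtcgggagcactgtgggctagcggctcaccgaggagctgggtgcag
Col4a1: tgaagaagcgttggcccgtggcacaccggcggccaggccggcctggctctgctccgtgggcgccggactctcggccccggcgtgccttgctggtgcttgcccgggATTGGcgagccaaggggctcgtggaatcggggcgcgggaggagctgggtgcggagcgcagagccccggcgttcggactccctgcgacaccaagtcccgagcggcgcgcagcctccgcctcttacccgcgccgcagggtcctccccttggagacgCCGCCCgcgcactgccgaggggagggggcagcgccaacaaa
Col4a2: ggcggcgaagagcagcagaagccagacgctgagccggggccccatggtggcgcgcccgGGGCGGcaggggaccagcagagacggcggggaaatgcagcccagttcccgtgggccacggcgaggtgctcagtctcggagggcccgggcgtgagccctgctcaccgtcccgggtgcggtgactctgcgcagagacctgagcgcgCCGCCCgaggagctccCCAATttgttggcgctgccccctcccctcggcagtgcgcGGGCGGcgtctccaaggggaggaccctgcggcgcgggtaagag

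The Col27a1 window had 61.7% G and C and held 2 GC boxes and no CCAAT box. The Col18a1 window shown, which belongs to the upstream of its annotated starts, held 3 GC boxes and 1 CCAAT box. The window of a later Col18a1 start, at chr10:77113656-77113955, held no match to any motif searched. Which of these starts the livers used was not tested. The windows of Col4a1 and Col4a2 share 78 bases on opposite strands. Windows were found for 32 of the 40 members (34 windows), 19 of them tested. A GC box was present in 64.7% of collagen windows and 35.7% of all 32851 windows of the same length, and a CCAAT box in 32.4% and 37.4%. These shares were not adjusted for base composition. The share of G and C ran from 37.7% (Col3a1) to 75.0% (Col5a1) in collagen windows, with a median of 52.7% over all windows. A TATA box (TATAAA) was present in 14.7% and 13.6%, a sterol regulatory element (TCACNCCAC) in 5.88% and 1.24%, a forkhead motif (TGTTTAC) in 2.94% and 3.65%, and an E-box (CACGTG) in 0 of the 34 collagen windows and 7.15% of all. The sterol regulatory element was found in only 2 collagen windows, those of Col11a2 and of Col17a1, which was not tested. Both strands were searched, and a match is a description of letters, not a bound site.

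Levels between genes were compared per length, as CPM per kb of the deposited gene length averaged over the 16 libraries. Col18a1 stood at 143 CPM per kb. The next genes were Col5a3, a minor fibrillar chain, at 7.69, Col27a1 at 6.94, the fibril-associated Col14a1 at 5.03, and the basement membrane chains Col4a2 and Col4a1 at 4.74 and 4.67 CPM per kb. The fibrillar chains of type I and type III collagen were lower: Col1a1 at 3.09, Col3a1 at 2.93 and Col1a2 at 1.54 CPM per kb. This order depends on the deposited lengths. Col1a1 and Col1a2 had 5612 and 5368 counts over all libraries, at deposited lengths of 6563 and 12426 bases. The place of Col27a1 in this order depended on feeding, with group means after the fast of 2.88 CPM per kb (control) and 1.19 (LKO) and after refeeding of 13.6 (control) and 10.03 (LKO), so that in the refed groups it was the next gene after Col18a1. The other 17 members had between 3 counts (Col26a1) and 101 counts (Col7a1, the anchoring fibril chain) over all 16 libraries, never exceeded 0.894 CPM, and were not tested. They include Col4a3, Col4a4 and Col4a6 of the basement membrane, Col8a1, Col8a2 and Col10a1 of the short-chain networks, and Col6a4 and Col6a5.

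**Figure D1:**
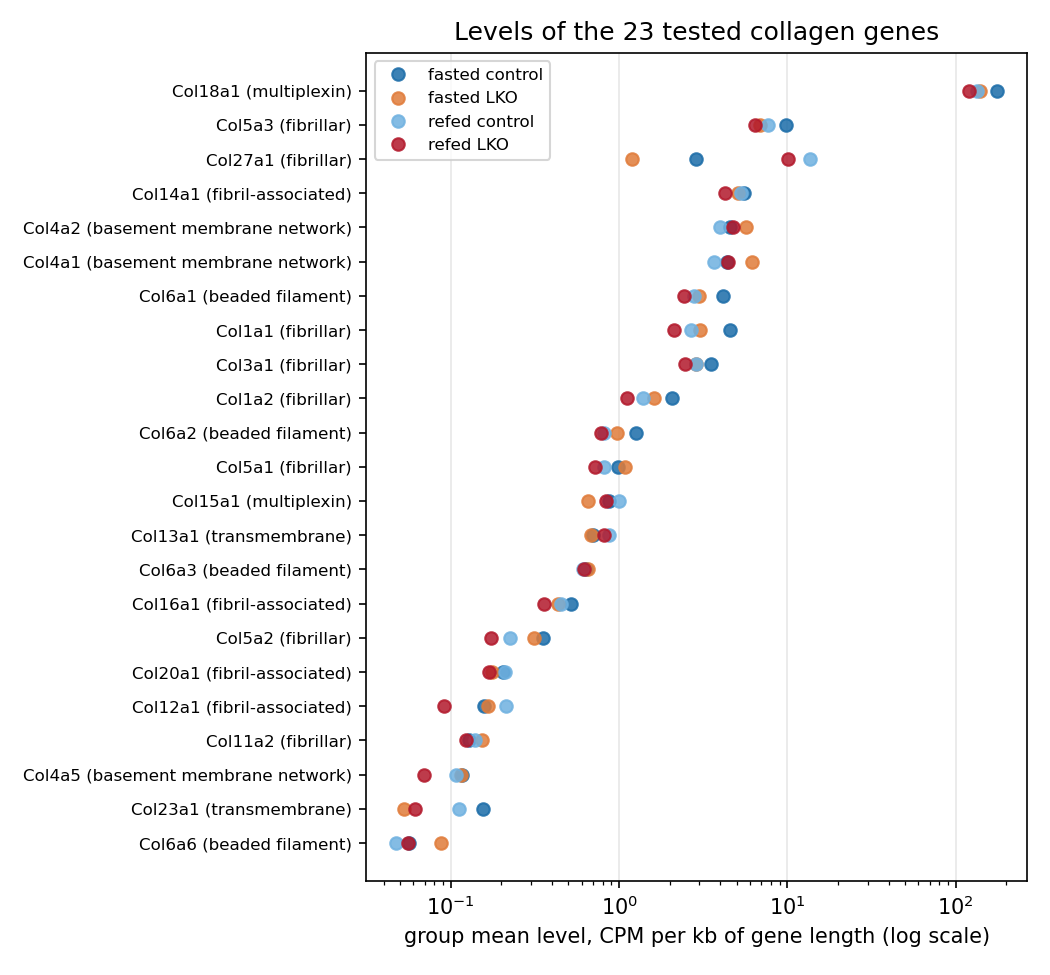
Mean level of each of the 23 tested collagen genes in the 4 groups, in CPM per kb of gene length on a log axis, with the structural class after each name. Col18a1 lies far to the right in every group, and Col27a1 has the widest spread between groups, from 1.19 CPM per kb in fasted LKO to 13.6 in refed control.

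Refeeding raised Col27a1 in both genotypes, and the LKO livers had less of it in the fasted state. Col27a1 (ENSMUSG00000045672, chromosome 4 from 63132241 to 63253228 in mm39, plus strand) encodes a fibrillar chain best known from cartilage. It stood at 25.3, 58.7, 32.0 and 34.2 CPM in fasted control, and at 13.5, 19.7, 19.3 and 9.32 CPM in fasted LKO. It stood at 210.9, 187.5, 149.1 and 162.8 CPM in refed control, and at 146.0, 142.9, 109.7 and 124.1 CPM in refed LKO. Every refed library lay above every fasted library, and within each feeding state no LKO library reached the lowest control library, although S52 at 146.0 came close to S50 at 149.1 CPM.

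The means of Col27a1 after the fast were 37.5 ± 14.6 CPM for control and 15.5 ± 4.98 CPM for LKO, and after refeeding 178 ± 27.3 CPM for control and 131 ± 17.0 CPM for LKO (SD, n = 4). Refeeding raised it 4.73-fold in control (log2 fold change 2.24, SE 0.25, edgeR adjusted p = 0.000163) and 8.44-fold in LKO (log2 fold change 3.08, SE 0.26, edgeR adjusted p = 1.1e-05), and by p-value it ranked 6 and 1 among the 14488 genes tested in these comparisons. In the fasted state its level in LKO was 0.412 times that of control (log2 fold change −1.28, SE 0.25, edgeR adjusted p = 0.00337). In bulk liver, fewer cells of a type and less RNA per cell cannot be told apart. In the refed state the log2 fold change of −0.44 (SE 0.23, 95% interval −0.95 to 0.07) did not pass by edgeR (adjusted p = 0.334), while the authors' deposited table gives −0.44 with an adjusted p of 0.0361. The LKO effect differed between fasted and refed livers by 0.84 on the log2 scale (SE 0.34), short of the threshold with an edgeR adjusted p of 0.219. The 3 calls held in all 24 alternative analyses, with highest adjusted p-values of 0.0248 for the genotype effect, 0.00216 for refeeding in control and 0.000369 for refeeding in LKO. These 3 comparisons share libraries.

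**Figure D2:**
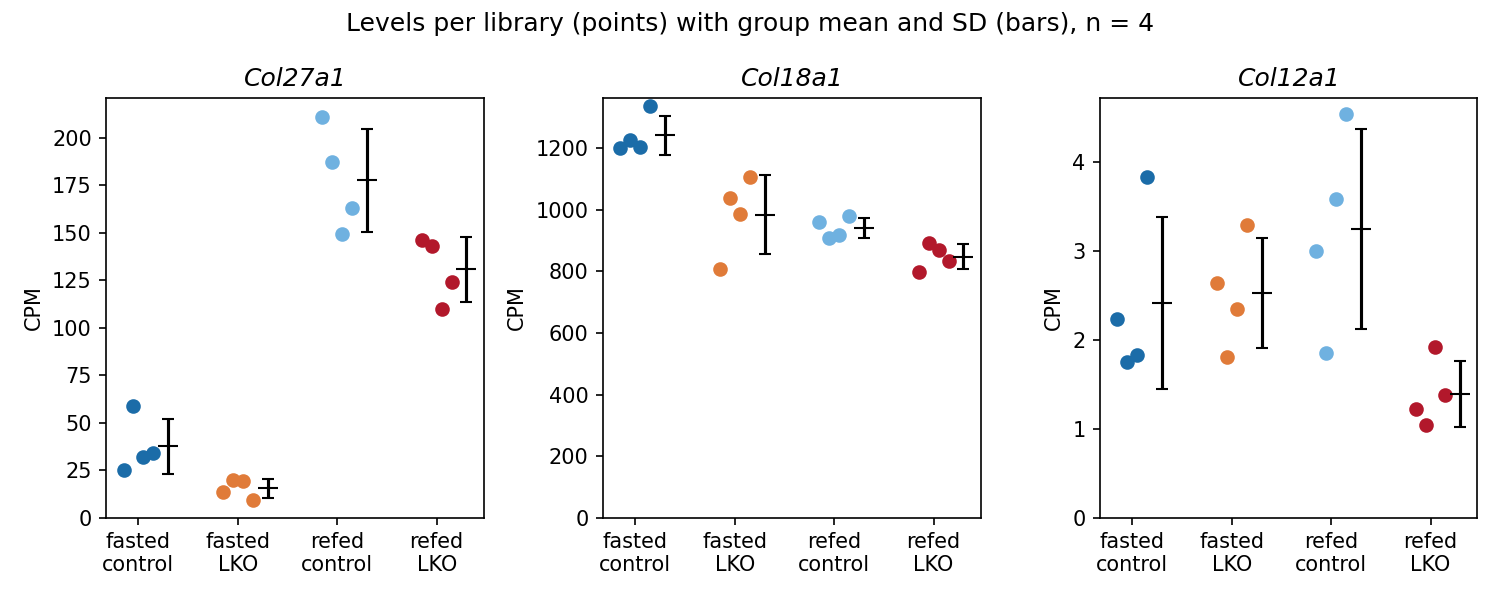
Levels in CPM of Col27a1, Col18a1 and Col12a1 in each of the 16 libraries (points, by group on the x axis), with the group mean and SD (bars, n = 4) and axes starting at 0. Col27a1 is higher in every refed library than in any fasted library, Col18a1 is highest in fasted control, and Col12a1 is lowest in refed LKO with an overlap of S49 and S54.

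The genes around Col27a1 were examined after its rise was seen. The tested genes within 100 kb were Zfp618, Ambp, Kif12, Orm1, Orm2, Orm3, Akna and Whrn. None of them passed in either refeeding comparison (lowest edgeR adjusted p = 0.326). Orm1, which encodes an acute phase protein of plasma, changed by 0.09 and −0.28 on the log2 scale with refeeding in control and LKO, without passing. In the fasted genotype comparison Ambp, which encodes the precursor of alpha-1-microglobulin, passed with a log2 fold change of −0.43 (edgeR adjusted p = 0.00782). The microRNA gene Mir455 lies inside Col27a1 (chromosome 4 from 63256851 to 63256932 within 63214009 to 63334991 in GRCm38), and mature microRNAs were not measured by these libraries.

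Col18a1 fell with refeeding in control livers and was lower in fasted LKO than in fasted control. Col18a1 (ENSMUSG00000001435, chromosome 10 from 76888012 to 77002382 in mm39, minus strand) stood at 1202, 1228, 1206 and 1337 CPM in fasted control, and at 806.9, 1039, 985.7 and 1106 CPM in fasted LKO. In the refed groups it stood at 959.3, 907.6, 920.1 and 979.1 CPM in control, and at 798.6, 891.4, 870.0 and 833.3 CPM in LKO. All 4 fasted control libraries lay above all other libraries, and the fasted LKO group overlapped both refed groups.

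The means of Col18a1 after the fast were 1243 ± 63.8 CPM for control and 984 ± 128 CPM for LKO, and after refeeding 942 ± 33.4 CPM for control and 848 ± 40.9 CPM for LKO (SD, n = 4). Its log2 fold change was −0.40 (SE 0.09, edgeR adjusted p = 0.00871) for refeeding in control and −0.34 (SE 0.09, edgeR adjusted p = 0.0243) for LKO in the fasted state. The refeeding call in control held in all 24 alternative analyses. The fasted genotype call was lost without S43, S44 or S46, with only the 2 groups compared in the fit, and without S40 and S44 together. Over all alternatives its estimate ran from −0.40 to −0.25 and the adjusted p reached 0.0943. Of the 7 hepatocyte markers tested, Ttr and Serpina1c were also called lower in fasted LKO (log2 fold changes −0.59 and −0.62, edgeR adjusted p = 0.0181 and 0.0431). Over all genes 6.48% were called lower in that comparison, and the count of markers was not tested against this share. The median of the 7 was −0.59. Ttr lost its call in 4 of 24 alternatives, the fit without S44 among them. Serpina1c lost its call in 10 of 24, the fit without S40 among them. The part of the hepatocyte markers in the Col18a1 result was not tested. Refeeding in LKO gave −0.21 (SE 0.09, edgeR adjusted p = 0.12), which passed without S44 (−0.30, adjusted p = 0.0191), and LKO in the refed state gave −0.15 (SE 0.09, edgeR adjusted p = 0.41). Col18a1 overlaps Slc19a1 on the opposite strand over 8825 bases, and the use of strand in counting is not given in the sources used here. Slc19a1 had 3343 counts against 288072 of Col18a1 over all libraries.

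Col12a1, a fibril-associated chain, was lower in refed LKO than in refed control, at low counts. Col12a1 (ENSMUSG00000032332, chromosome 9 from 79506273 to 79626113 in mm39, minus strand) stood at 3.003, 1.86, 3.58 and 4.55 CPM in refed control and 1.23, 1.047, 1.92 and 1.39 CPM in refed LKO. Its fasted levels were 2.23, 1.75, 1.83 and 3.83 CPM in control and 2.65, 1.81, 2.35 and 3.29 CPM in LKO. The refed groups overlapped, since S49 of control lay below S54 of LKO, and the fasted groups overlapped over most of their range.

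The refed means of Col12a1 were 3.25 ± 1.12 CPM in control and 1.39 ± 0.37 CPM in LKO (SD, n = 4), a log2 fold change of −1.21 (SE 0.31, edgeR adjusted p = 0.0411). The call was lost in 10 of 23 alternatives, among them limma-voom, the fit with only the 2 groups compared, and each of the fits without S40, S48, S50, S51, S52, S53 or S55, with adjusted p up to 0.115, and without S40 and S44 together it was 0.0555. The fasted log2 fold change was 0.07 (SE 0.30, edgeR adjusted p = 0.918), and the difference between the states, −1.28, did not pass (edgeR adjusted p = 0.153). Refeeding gave 0.43 in control (edgeR adjusted p = 0.362) and −0.85 in LKO (edgeR adjusted p = 0.0713).

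Counted over the 23 tested members, 2 passed for LKO against control in the fasted state, both lower (Col27a1 and Col18a1), against a background of 12.2% of all genes called in either direction and 6.48% called lower. In the refed state 1 passed, lower (Col12a1), against 3.63% and 1.35% of all genes. With refeeding 2 passed in control (Col27a1 higher, Col18a1 lower), where 15.4% of all genes were called, and 1 in LKO (Col27a1, higher), where 18.1% were called and 9.28% called higher. The test of whether the genotype effect differed between the states called 0 members by edgeR, against 0.538% of all genes, with 2 members (Col12a1 and Col27a1) at an unadjusted p under 0.05, and DESeq2 and limma-voom called 0 as well. These counts were not tested against the background.

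More estimates lay below 0 than above it in each group comparison. In the fasted genotype comparison 16 of 23 estimates were below 0, with a median log2 fold change of −0.22 against 0.02 over all genes, and in the refed state 19 of 23 with a median of −0.24 against −0.01. For refeeding the counts below 0 were 17 in control (median −0.20 against 0.01) and 19 in LKO (median −0.28 against −0.02). Members share cells of origin and libraries, so these counts have no test. The largest estimate that did not pass in the fasted genotype comparison belonged to Col23a1, a transmembrane collagen, at −1.54 (SE 0.60, edgeR adjusted p = 0.107). Its level rested on few counts, at 0.618 to 1.09 CPM in fasted control and 0.170 to 0.449 CPM in fasted LKO, and the groups did not overlap. It passed with only the 2 groups compared in the fit (adjusted p = 0.0316) and without S55 of refed LKO (adjusted p = 0.0359).

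**Figure D3:**
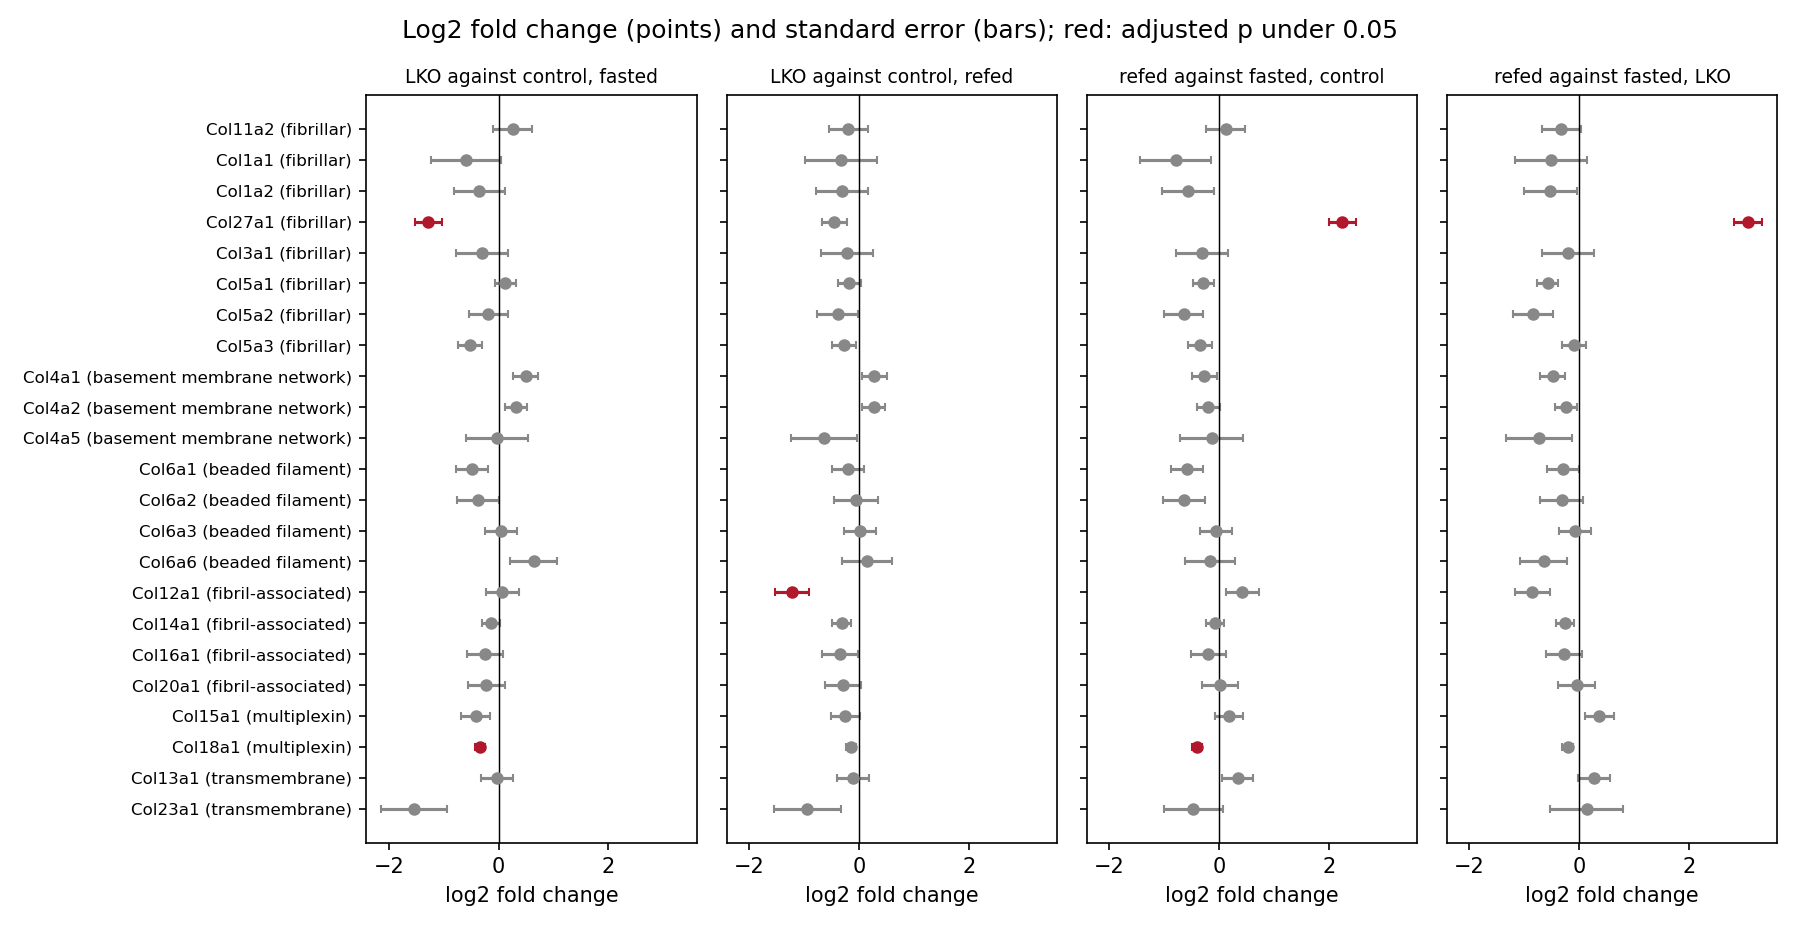
Log2 fold change (points) with its standard error (bars) of the 23 tested collagen genes in 4 comparisons, grouped by structural class, with the genes that passed in red. Col27a1 stands far from all others in both refeeding comparisons, at 2.24 and 3.08, and most remaining points lie to the left of 0.

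By structural class, the fibrillar chains other than Col27a1 gave no call. Col5a3 was at 53.3 to 78.3 CPM in fasted control and 23.6 to 60.4 CPM in fasted LKO, a log2 fold change of −0.52 (SE 0.22, edgeR adjusted p = 0.13). Col5a1 and Col5a2, which regulate fibril diameter together, gave −0.58 (SE 0.20, edgeR adjusted p = 0.0541) and −0.84 (SE 0.37, edgeR adjusted p = 0.13) with refeeding in LKO. Col5a1 passed in that comparison under DESeq2, under a filter of 5 CPM, and without S43, S46 or S54. Col1a1, Col1a2 and Col3a1 had standard errors between 0.47 and 0.66 in every group comparison, and their estimates of −0.21 to −0.79 did not pass.

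The main basement membrane chains, Col4a1 and Col4a2, had estimates above 0 in LKO. Col4a1 was at 26.2 to 40.3 CPM in fasted control and 32.4 to 57.3 CPM in fasted LKO, a log2 fold change of 0.49 (SE 0.23, edgeR adjusted p = 0.181), and Col4a2 gave 0.32 (SE 0.21, edgeR adjusted p = 0.36). In the refed state both stood at about the same difference, 0.28 and 0.27. The ratio of Col4a1 to Col4a2 counts stayed between 0.847 and 1.56 in the 16 libraries. With refeeding in LKO they gave −0.48 and −0.24, and both passed only when S54 was left out (adjusted p 0.0197 and 0.0468), the refed LKO library with the highest Col4a1 level, 50.8 CPM against 21.6 to 33.6 CPM in the others. Without S54 the members called in that comparison were 5 (Col27a1, Col12a1, Col4a1, Col4a2 and Col5a1) in place of 1.

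Collagen VI, whose Col6a1, Col6a2 and Col6a3 chains assemble into 1 filament, gave no call. With refeeding in control Col6a1 gave −0.59 (SE 0.29, edgeR adjusted p = 0.188), Col6a2 −0.64 (SE 0.39, edgeR adjusted p = 0.292) and Col6a3 −0.05. Col6a6, at few counts, gave 0.64 for LKO in the fasted state (SE 0.43, edgeR adjusted p = 0.377) and −0.65 with refeeding in LKO (SE 0.43, edgeR adjusted p = 0.328). Col14a1, the most abundant fibril-associated chain, was at 32.4 to 48.6 CPM in refed control and 27.7 to 32.8 CPM in refed LKO, and its log2 fold change of −0.32 (SE 0.17, edgeR adjusted p = 0.333) did not pass. Col15a1, the other multiplexin, did not pass in any comparison.

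Within groups, the interstitial collagens differed widely between libraries and did so together. Col1a1 stood at 24.8, 8.81, 17.8 and 68.4 CPM in fasted control, at 16.8, 12.4, 6.89 and 43.3 CPM in fasted LKO, at 15.6, 3.98, 13.4 and 36.8 CPM in refed control, and at 7.98, 15.8, 18.8 and 12.9 CPM in refed LKO. S43, S47 and S51 stood well above the other libraries of their groups, S54 was the highest of refed LKO by less, and all 4 groups overlapped. Over all 23 tested members, S43 was the highest library of its group for 15, and S47, S51 and S54 for 13 each. The same count was not made over all tested genes. S43, S47, S51 and S54 also had the fewest total counts of their groups (16394616, 15636010, 14721601 and 15103715). The part of library depth in these levels was not tested.

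The deviation of each library from its group mean (log2 CPM) was compared with that of Col1a1 over the 16 libraries for the other 22 tested members, with 100000 permutations within groups. Pearson's r was 0.98 for Col1a2 (Spearman's rho 0.96), 0.97 for Col3a1 (rho 0.96) and 0.93 for Col6a3 (rho 0.90), with Benjamini-Hochberg adjusted permutation p-values of 0.00011, 0.00011 and 0.00015. The unadjusted p of 1e-05 for Col1a2 is the smallest these permutations can give. Col12a1 followed with r = 0.84, Col6a1 and Col6a2 with 0.83 each and Col5a1 with 0.80, and Col4a5, Col4a1 and Col5a2 with 0.68, 0.62 and 0.61. These 10 of 22 passed on r and on rho, and on rho 13 of 22 passed. The correlation with Col1a1 was not computed for genes outside the collagens, so no share over all genes stands beside these counts. Without S43 and S49, the libraries farthest from the median, r was 0.97 for Col1a2, 0.97 for Col3a1 and 0.74 for Col12a1.

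Col18a1, Col4a2 and Col5a3 gave r of 0.45, 0.45 and 0.30, which did not pass (adjusted permutation p = 0.16, 0.081 and 0.37), although the rho of Col18a1 was 0.61 (adjusted permutation p = 0.041). Col27a1 had the lowest r, −0.62 (rho −0.50, adjusted permutation p = 0.068 and 0.11), and −0.72 without S43 and S49. The 4 libraries high in Col1a1 were at 34.2, 9.32, 162.8 and 109.7 CPM of Col27a1, of which S47 and S54 were the lowest of their groups. The points share library depth and scaling, and all r values come from the same 16 libraries.

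**Figure D4:**
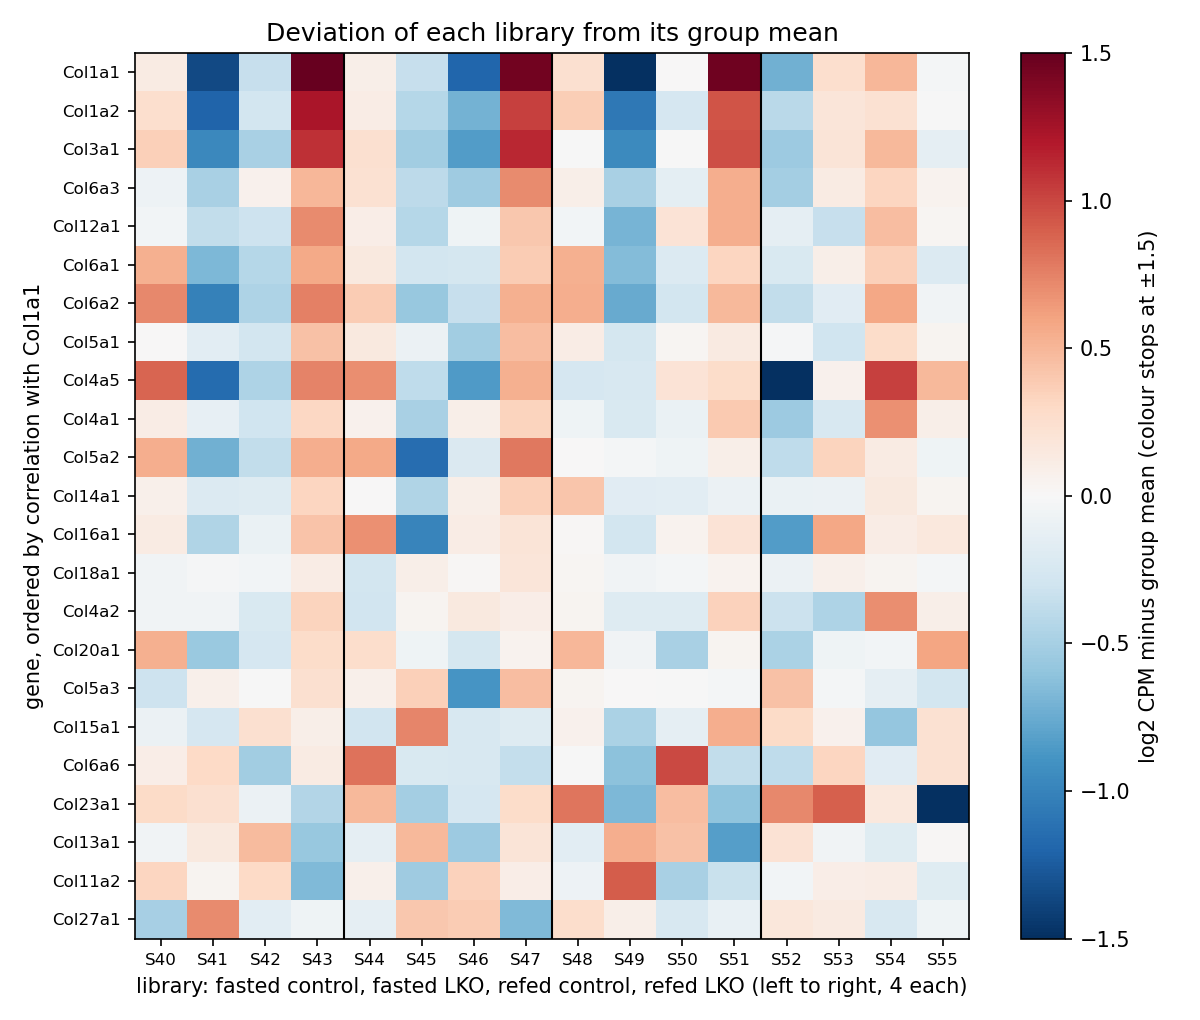
Deviation of log2 CPM from the group mean for the 23 tested collagen genes (rows, ordered by correlation with Col1a1) in each of the 16 libraries (columns, vertical lines between groups), with the colour scale ending at ±1.5. S43, S47 and S51 are red through the upper rows while S41, S46 and S49 are blue, the row of Col18a1 is pale, with small deviations, and the row of Col27a1 is blue in S47.

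Marker levels of the cells known to make these chains were set beside them. Portal fibroblast markers (5 of 7 tested, with Gli1 and Pi16 at 0 in at least 1 library) summed to 32.9, 22.6, 18.6 and 19.3 CPM in S43, S47, S51 and S54, which was the highest value of the group in S51 and S54 and below S40 (39.6 CPM) and S44 (23.9 CPM) in S43 and S47. Stellate cell markers (10 of 10 tested) summed to 249.7, 264.6, 214.8 and 269.1 CPM in the same libraries, which was the lowest of the group in S47 and S51, within group ranges of 234.6 to 339 in fasted control, 264.6 to 355.5 in fasted LKO, 214.8 to 382.7 in refed control and 229.2 to 291 in refed LKO. Myofibroblast markers summed to 18.5, 16.0, 14.4 and 15.4 CPM there. Cholangiocyte markers (5 of 6 tested) summed to 56.4, 65.5, 58.7 and 37.9 CPM in S43, S47, S51 and S54, the highest of the group in S43 and S51 and the next after the highest in S47 and S54. Sinusoidal endothelial markers (9 of 9 tested) summed to between 182.3 and 284.6 CPM over all libraries. The part of any of these cells in the collagen levels was not tested.

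**Figure D5:**
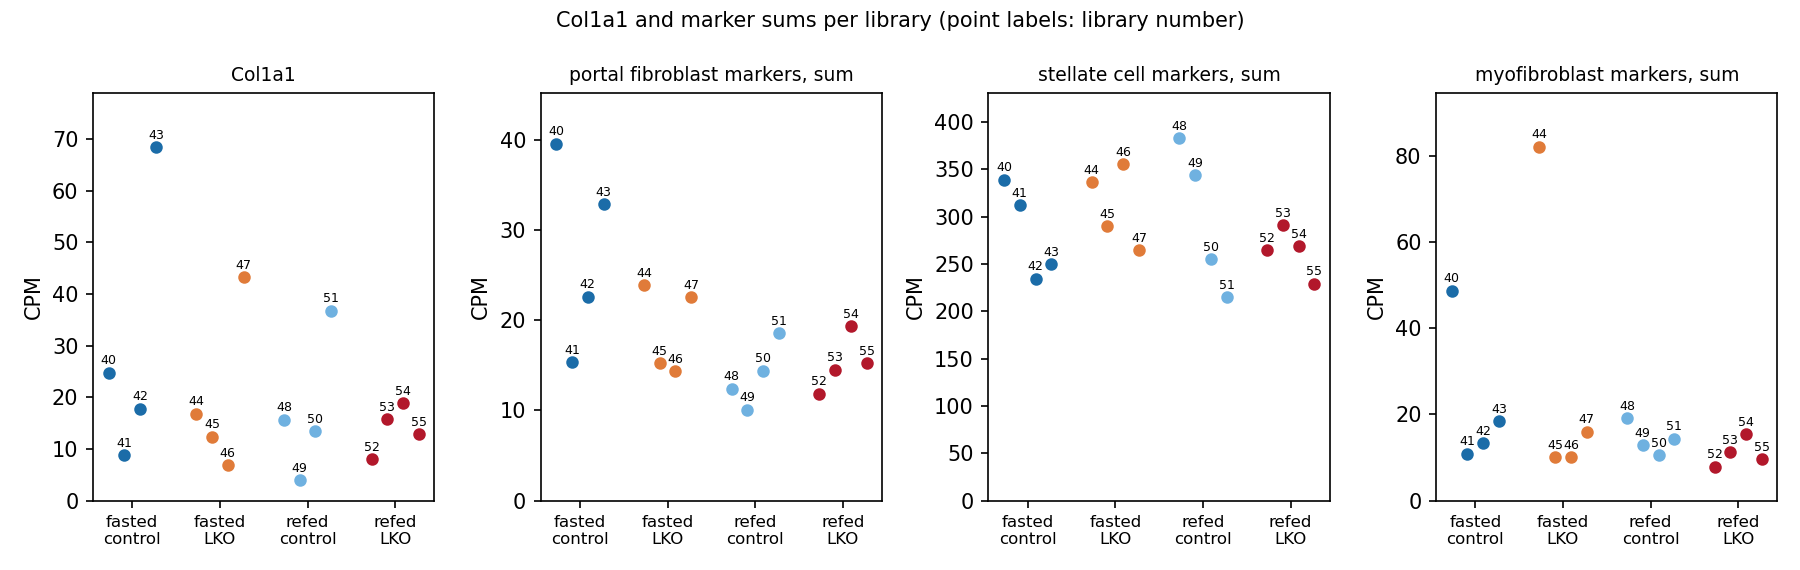
Col1a1 level and summed levels of portal fibroblast, stellate cell and myofibroblast markers, in CPM from 0, for each of the 16 libraries by group, with the number of the library above each point. S43, S47 and S51 are the highest of their groups in Col1a1, S40 and S44 are the highest in the myofibroblast sum, and the stellate cell sum of S51, 214.8 CPM, is the lowest of all libraries.

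Of the 5 tested portal fibroblast markers, 3 (Entpd2, Eln and Fbln2) were called with refeeding in control, all lower, where 15.4% of all genes were called in either direction. The count of markers was not tested against this share. With refeeding in LKO 0 were called, where 18.1% of all genes were called. The difference of the LKO effect between states called 0 of the 5. For refeeding in control Entpd2 was called without S40 and S44 as well (edgeR adjusted p = 0.00643). Eln and Fbln2 lost that call without S40 (edgeR adjusted p = 0.0519 and 0.188), and Fbln2 lost it in 13 of 23 alternatives. Fbln2 was also called lower in fasted LKO against control, a call lost in 16 of 23 alternatives, those without S40 and without S44 among them. Of the 10 stellate cell markers, Lrat and Reln were called higher and Ngfr lower with refeeding in control, and Ngfr lower with refeeding in LKO. Without S40 the call of Reln was lost (edgeR adjusted p = 0.0953), and those of Lrat and Ngfr held in all their alternatives. The part of these cells in the fall of Col18a1 with refeeding was not tested. The fall of Col18a1 and the rise of Col27a1 with refeeding in control remained past the threshold without S40 and without S44.

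The genes that make, cut, bind and regulate collagen were followed as 6 lists of 79 genes, 68 of them tested. For LKO against control 5 were called in the fasted state (3 higher, 2 lower) and 1 in the refed state (lower). With refeeding 6 were called in control (4 higher, 2 lower) and 8 in LKO (3 higher, 5 lower), and the difference between states called 0. Over all genes the shares called in these comparisons were 12.2%, 3.63%, 15.4%, 18.1% and 0.538%, so that in none of them did the lists hold a larger share of calls than genes at large.

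Of 15 tested genes that modify and fold the chains, Ppib, P4hb and P4ha2 were called in at least 1 comparison. Ppib, the prolyl isomerase cyclophilin B of the endoplasmic reticulum, stood after the fast at 70.9 ± 1.29 CPM in control and 41.4 ± 4.89 CPM in LKO, and after refeeding at 97.2 ± 12.1 CPM in control and 69.7 ± 3.53 CPM in LKO (SD, n = 4). No LKO library reached a control library of the same feeding state. It was lower in LKO in both states, with log2 fold changes of −0.78 when fasted (SE 0.09, edgeR adjusted p = 0.000238) and −0.48 when refed (SE 0.09, edgeR adjusted p = 0.00972), and rose with refeeding by 0.45 in control (edgeR adjusted p = 0.0045) and 0.75 in LKO (edgeR adjusted p = 8.04e-05). All 4 calls held in all 24 alternatives. Ppib also folds proteins other than collagens.

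P4hb, the protein disulfide isomerase that is the beta subunit of prolyl 4-hydroxylase, rose with refeeding in control from 1245 ± 126 to 1858 ± 179 CPM (SD, n = 4), a log2 fold change of 0.58 (SE 0.10, edgeR adjusted p = 0.00218). P4ha2, a catalytic subunit of the same enzyme, rose with refeeding by 0.70 in control (edgeR adjusted p = 0.0429) and 0.88 in LKO (edgeR adjusted p = 0.0117), and the first of these was lost in 9 of 24 alternatives. The other 12 tested genes of the list gave no call. Of 9 tested genes for propeptide removal and cross-linking, the lysyl oxidases among them, 0 were called in any of the 5 comparisons.

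Of 8 tested genes for collagen degradation and its inhibitors, the metalloproteinase inhibitor Timp3 rose with refeeding, from 1.93 ± 0.60 to 4.43 ± 0.68 CPM in control (SD, n = 4), a log2 fold change of 1.20 (edgeR adjusted p = 0.00687), and by 0.86 in LKO (edgeR adjusted p = 0.0308, lost in 6 of 23 alternatives). Mmp14, a membrane-bound collagenase, fell with refeeding in LKO by 0.50 on the log2 scale (edgeR adjusted p = 0.0138). Of 6 tested collagen receptors only Itgb1, the shared beta subunit of the collagen-binding integrins, was called, at 0.23 in fasted LKO (edgeR adjusted p = 0.0425), and that call was lost in 15 of 24 alternatives.

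Of 15 genes of TGF-beta and PDGF signalling, Pdgfa, a growth factor for stellate cells, was lower with refeeding, at −0.64 in control (edgeR adjusted p = 0.0142, lost without S40, alone or with S44) and −0.75 in LKO (edgeR adjusted p = 0.00327). Smad3, a transducer of TGF-beta, and Pdgfra, a PDGF receptor, were lower with refeeding in LKO, at −0.41 (edgeR adjusted p = 0.0158) and −0.64 (edgeR adjusted p = 0.041, lost in 11 of 23 alternatives). The other 12 genes gave no call.

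Of 15 tested genes of the other matrix, Fn1, which encodes fibronectin, was lower in fasted LKO at −0.39 (edgeR adjusted p = 0.018, lost without S42, without S44 and with only the 2 groups compared). Nid2, a linker of basement membranes, was higher there at 1.25 (edgeR adjusted p = 0.0143, 0.117 without S40 and S44 together), and Dcn, which encodes decorin, at 0.36 (edgeR adjusted p = 0.0413, lost in 11 of 24 alternatives). Eln, which encodes elastin and is also a portal fibroblast marker, fell by 1.41 on the log2 scale with refeeding in control (edgeR adjusted p = 0.0138, 0.0519 without S40). Postn, which encodes periostin, fell by 0.76 on the log2 scale with refeeding in LKO (edgeR adjusted p = 0.0379, lost in 8 of 24 alternatives).

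The authors' deposited tables call more collagen genes at an adjusted p-value under 0.05 than edgeR did. In the authors' deposited table the fasted genotype comparison holds 3 members, Col27a1 (log2 fold change −1.29), Col18a1 (−0.34) and Col23a1 (−1.57, adjusted p = 0.0302). The authors' deposited table for the refed genotype comparison holds 2, Col12a1 (−1.21, adjusted p = 0.00746) and Col27a1. For refeeding in control the authors' deposited table holds 3, Col27a1, Col18a1 and Col5a3 (−0.35, adjusted p = 0.0371), and for refeeding in LKO the authors' deposited table holds 2, Col27a1 (adjusted p = 1.24e-42) and Col12a1 (−0.85, adjusted p = 0.0458).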

How the data were processed

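Per-gene raw counts were deposited by the authors in 4 tables, each for a pair of groups, and come from poly-A libraries with HISAT2 2.0.5 and the mm39 build, per the submitters' processing notes. The counting tool, its use of strand and the annotation are not given in the sources used here. The deposited tables also hold the authors' log2 fold changes and adjusted p-values, quoted as theirs, and gene lengths. A further 64 per-library columns were not used. After joining on gene identifier, a library found in several tables had identical values (0 differing). Where no table of a library listed a gene, its value was set to 0, as for 3148 genes. Library columns carry no replicate number and were assigned to groups by the headings of the tables they share.

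Counts were fitted in R 4.3.3 with edgeR 4.0.16: filterByExpr (14488 genes), TMM factors from 0.941 to 1.07, glmQLFit with the 4 groups as 1 factor, and glmQLFTest for 5 contrasts. Calls were made at 0.05 after Benjamini-Hochberg adjustment over every tested gene. The standard error is the size of the log2 fold change divided by the square root of F. CPM used TMM-scaled totals, and deviations a prior count of 2. DESeq2 1.42.0, limma-voom (limma 3.58.1), other scalings and filters, the pairs of groups alone, and fits without each library were alternatives. The script was tested on simulated data. Every collagen gene could be named, and a pathway gene when called in at least 1 contrast. Neighbours of Col27a1 were chosen after values were seen. The members and lists were chosen with earlier results of these data known. Marker lists covered stellate cells, myofibroblasts, portal fibroblasts, mesothelium, sinusoidal endothelium, cholangiocytes, hepatocytes, resident macrophages, adipocytes, lymphocytes, red blood cells and pancreatic acinar cells. Promoter windows came from RefSeq (GRCm38.p6), and no coordinate was moved between builds.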

Additional observations from a re-analysis of the deposited data

Results flagged for a closer look

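Within groups of 4 libraries, a value was singled out when its gap to the nearest library was large against the range of the group (Dixon's criterion at 5%, so that chance singles out about 5% of groups). Of 92 groups of collagen levels examined, 3 were singled out. Col14a1 stood at 48.62 CPM in S48 of refed control, against 32.35 to 34.14 CPM in the other refed control libraries. Col15a1 stood at 6.62 CPM in S45 of fasted LKO, against 3.20 to 3.42 CPM in the others. Col6a6, a beaded filament chain at low counts, stood at 1.40 CPM in S44 of fasted LKO, against 0.559 to 0.622 CPM in the others. With marker sums included, 140 groups were examined and 6 were singled out, the other 3 all in S44 of fasted LKO: the myofibroblast sum at 82.2 CPM against 10.03 to 16.0 CPM, the mesothelium sum at 34.6 CPM against 6.03 to 6.45 CPM, and the pancreatic acinar sum at 9.43 CPM against 0 to 0.373 CPM.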

How the results depend on the processing

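No paired analysis was possible because the library columns carry no replicate number. Signs were followed through the alternatives only for collagen estimates that passed in some fit or had an unadjusted p under 0.05. Called genes of the pathway lists and of the stellate cell, portal fibroblast, hepatocyte and lymphocyte lists were followed as well. None of these estimates reversed, and other named estimates were not followed. No scaling moved the median of all genes by over 0.1 on the log2 scale. The count of collagen genes called for LKO in the refed state went from 1 to 0 under a filter of 5 CPM (where Col12a1 is no longer tested), limma-voom, or only the 2 groups compared, and ranged from 0 to 1 when single libraries were left out. For refeeding in LKO it went from 1 to 2 under a filter of 5 CPM and to 3 under DESeq2, and ranged from 1 to 5 when single libraries were left out (5 without S54, 3 without S43, 2 without S44, S45, S46 or S49). For LKO in the fasted state it ranged from 1 (without S43, S44 or S46, where Col18a1 was lost) to 3 (without S55). Leaving out S40 and S44 together, an alternative chosen after seeing the data, gave 1 collagen gene for LKO fasted, 0 for LKO refed and 2 for refeeding in LKO, and 635, 1270 and 1 genes over all for LKO fasted, refeeding in control and the difference between states. Over all genes the difference between states gave 197 under a filter of 5 CPM and 467 under DESeq2, and LKO refed gave 924 under DESeq2. When single libraries were left out, all genes called ranged from 1048 to 1985 for LKO fasted, from 197 to 601 for LKO refed, from 1220 to 2483 for refeeding in control, from 1795 to 2730 for refeeding in LKO and from 8 to 282 for the difference between states. The lowest of these came without S44 for LKO fasted (1048), S48 for LKO refed (197) and the difference (8), and S40 for refeeding in control (1220). The cause of these moves was not tested. Levels under about 1 CPM rest on few counts, which limits Col23a1, Col4a5, Col6a6 and Col11a2.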
